A study of Mus musculus with 12 samples.

Results

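The 4 Hox clusters of the mouse genome were examined in a list of 170548 merged regions of accessible chromatin. The members were the list's regions that lie between the first and the last of 38 named Hox genes of a cluster, here called the core, or within 100 kb to either side, here called the flanks. In all, 212 of the 170548 regions lay in these spans, of which 127 were in the cores and 85 in the flanks. The choice used the position of a region only. The HoxA core ran from Hoxa2 to Hoxa13, the HoxB core from Hoxb1 to Hoxb13, the HoxC core from Hoxc4 to Hoxc13 and the HoxD core from Hoxd1 to Hoxd13.

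The regions come from ATAC-seq, in which the Tn5 transposase cuts open chromatin, on mouse ES cells grown in serum with 2i inhibitors and LIF. ZHBTc4 cells, whose OCT4 comes only from a transgene that doxycycline (dox) switches off, were kept without dox or with 1 µg/ml dox for 24 hr, and 2TS22C cells, in which the same holds for SOX2, without or with dox for 26 hr or 40 hr. Each of the 6 groups had 2 libraries, 12 in all, and each cell line is a single engineered line. The list pools experiments on both lines, and whether a published dataset of ZHBTc4 cells in serum with LIF also entered it is not given in the sources used here. It holds the chromosome, start and end of a region, with no value for a sample, so that dox-treated and untreated cells could not be compared here, the read depth behind a region is unknown, and replicate error could not be given.

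Hox genes encode homeodomain transcription factors that give cells their position along the head-to-tail axis of the embryo. They lie in clusters in the order in which they are used, with the genes at the 3′ end of a cluster active early and in anterior structures, and those at the 5′ end active later and in posterior structures and limbs. In ES cells the clusters are known to be held silent by Polycomb complexes, and retinoic acid is a classic inducer of the 3′ genes.

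Sequences from the regions are shown first, since their base composition and short motifs are described further on. The widest promoter region of HoxA, HoxB and HoxD is represented by the stretch nearest its center that holds no annotated untranslated exon, in GRCm38 (mm10), with every CpG dinucleotide in capitals and the gene's own strand written 5′ to 3′. The annotation given is that of the center of each stretch, and its ends can lie in another class.
Hoxa4 (chr6:52191389-52191688, minus strand, coding exon): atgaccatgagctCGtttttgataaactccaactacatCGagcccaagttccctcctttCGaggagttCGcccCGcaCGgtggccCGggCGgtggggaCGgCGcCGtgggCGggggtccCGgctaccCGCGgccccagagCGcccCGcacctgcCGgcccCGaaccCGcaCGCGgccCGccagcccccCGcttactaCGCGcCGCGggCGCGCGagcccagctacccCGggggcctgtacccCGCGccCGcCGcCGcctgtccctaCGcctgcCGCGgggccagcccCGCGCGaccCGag
Hoxb9 (chr11:96272036-96272335, plus strand, intron): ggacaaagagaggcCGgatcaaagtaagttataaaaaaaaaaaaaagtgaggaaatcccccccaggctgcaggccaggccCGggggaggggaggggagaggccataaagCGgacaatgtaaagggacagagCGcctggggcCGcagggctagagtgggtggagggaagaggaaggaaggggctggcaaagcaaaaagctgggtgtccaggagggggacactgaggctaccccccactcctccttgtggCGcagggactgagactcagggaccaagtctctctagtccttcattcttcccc
Hoxd13 (chr2:74667996-74668295, plus strand, upstream of the annotated gene): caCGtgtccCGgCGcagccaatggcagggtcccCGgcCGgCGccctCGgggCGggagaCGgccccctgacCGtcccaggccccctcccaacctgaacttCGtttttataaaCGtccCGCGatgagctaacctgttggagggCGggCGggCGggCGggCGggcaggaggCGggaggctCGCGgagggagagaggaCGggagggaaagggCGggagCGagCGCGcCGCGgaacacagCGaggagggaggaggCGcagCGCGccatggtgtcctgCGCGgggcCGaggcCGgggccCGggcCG
The stretches of Hoxa4 and Hoxd13 held 44 and 39 CpGs in 300 bases, and that of Hoxb9 held 6. Their GC contents were 75.7%, 75% and, for Hoxb9, 58%. The Hoxb9 stretch does not stand for its whole region. Taken whole, the regions had GC contents of 66.3% at Hoxa4, 64.6% at Hoxd13 and 65.8% at Hoxb9. Each was CpG-rich by the rule given further on.

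The cores were dense in regions. Across the 485 kb of the 4 cores there were 2.62 regions per 10 kb and 16.7% of bases were covered, against 1.06 regions per 10 kb and 6.24% of bases in the 800 kb of flank. The HoxD core had 27 regions, or 2.79 per 10 kb, the HoxB core 46 (2.64 per 10 kb), the HoxA core 26 (2.64 per 10 kb) and the HoxC core 28 (2.42 per 10 kb). The 4 cores thus had similar numbers of regions for their length, and each had more than any flank.

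Beside all autosomal windows of 100 kb, taken as a description, the cores stood at the dense end. The median of 23987 windows had 0.5 regions per 10 kb and 2.44% of its bases covered, and only 90 windows, or 0.375%, had at least the density of the HoxA core. For HoxC the number was 157 (0.655%), and for HoxD 67 (0.279%). The windows include those that overlap the cores. The cores hold many genes, so windows with at least 9 gene starts, the smallest number of members of a cluster, were also examined, a choice made after seeing the data. The 77 such windows had a median of 1.7 regions per 10 kb, which lay below all 4 cores and above 7 of the 8 flanks. Of these 77 windows, 1 had at least the density of HoxA, HoxB or HoxD, and 4 had at least that of HoxC. By the share of bases covered, 18 of the 77 (23.4%) reached the HoxB core, and 2 reached each of the other cores.

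**Figure D1:**
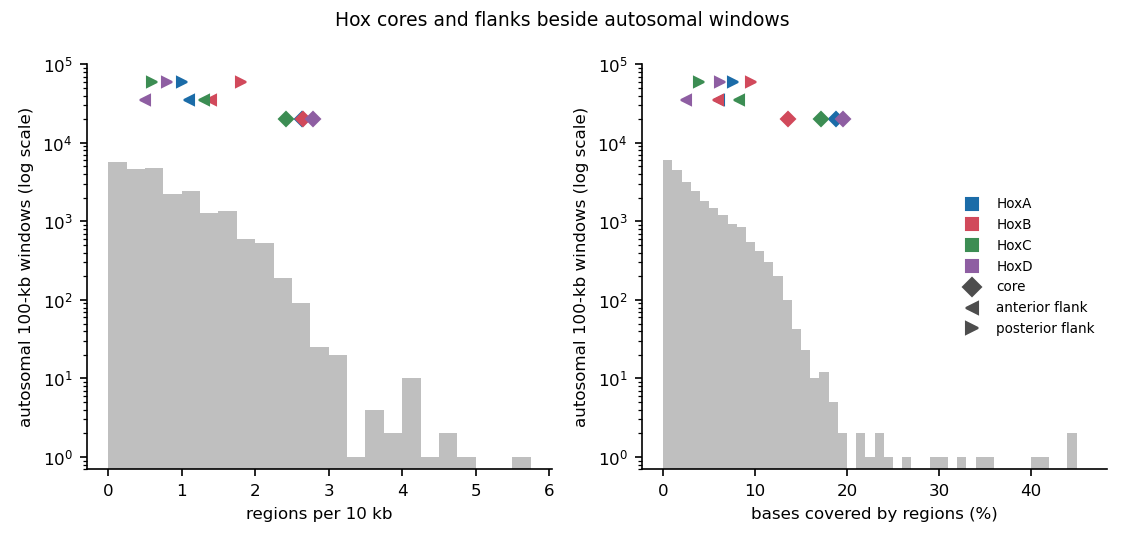
Regions per 10 kb (left, x axis) and percent of bases covered (right, x axis) in autosomal windows of 100 kb, counted in grey on a log y axis, with the Hox cores (diamonds) and flanks (triangles) placed along the x axis at heights that carry no value. The 4 cores sit between 2.42 and 2.79 regions per 10 kb, to the right of every flank.

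The flanks differed among themselves. The posterior flank of HoxB had the most regions, 18 in 100 kb, followed by its anterior flank with 14 and the anterior flank of HoxC with 13. The anterior flank of HoxD had the fewest, 5, with 2.47% of bases covered and a stretch of 35.1 kb without a region. The 8 protein-coding genes that start in the flanks, which include the homeobox genes Evx1 and Evx2 next to HoxA and HoxD, all had a region within 1 kb of a start site.

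Regions were spread along the cores in different ways, as the map of the 4 clusters shows. In HoxD, 20 of 27 regions were promoter-proximal, meaning that their center lay within 1 kb of the start site (TSS) of any annotated transcript, and in HoxA 18 of 26. HoxB had 21 of 46 and HoxC 13 of 28. Over all cores the number was 72 of 127, or 56.7% (95% Wilson interval 48% to 65%, which covers counting error only), while 17.3% of all merged regions were promoter-proximal. The flanks, with 14 of 85 or 16.5% (10.1% to 25.8%), were near that background. Gene starts are packed closely in the cores, with 41 of protein-coding genes in 485 kb, against 8 in the 800 kb of flank. The part of this gene density in the share was not tested. The share in the cores depends on the limit and on the transcripts counted: it was 42.5% with a limit of 500 bp and 77.2% with 2 kb, against 13.6% and 23.1% of all regions.

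**Figure D2:**
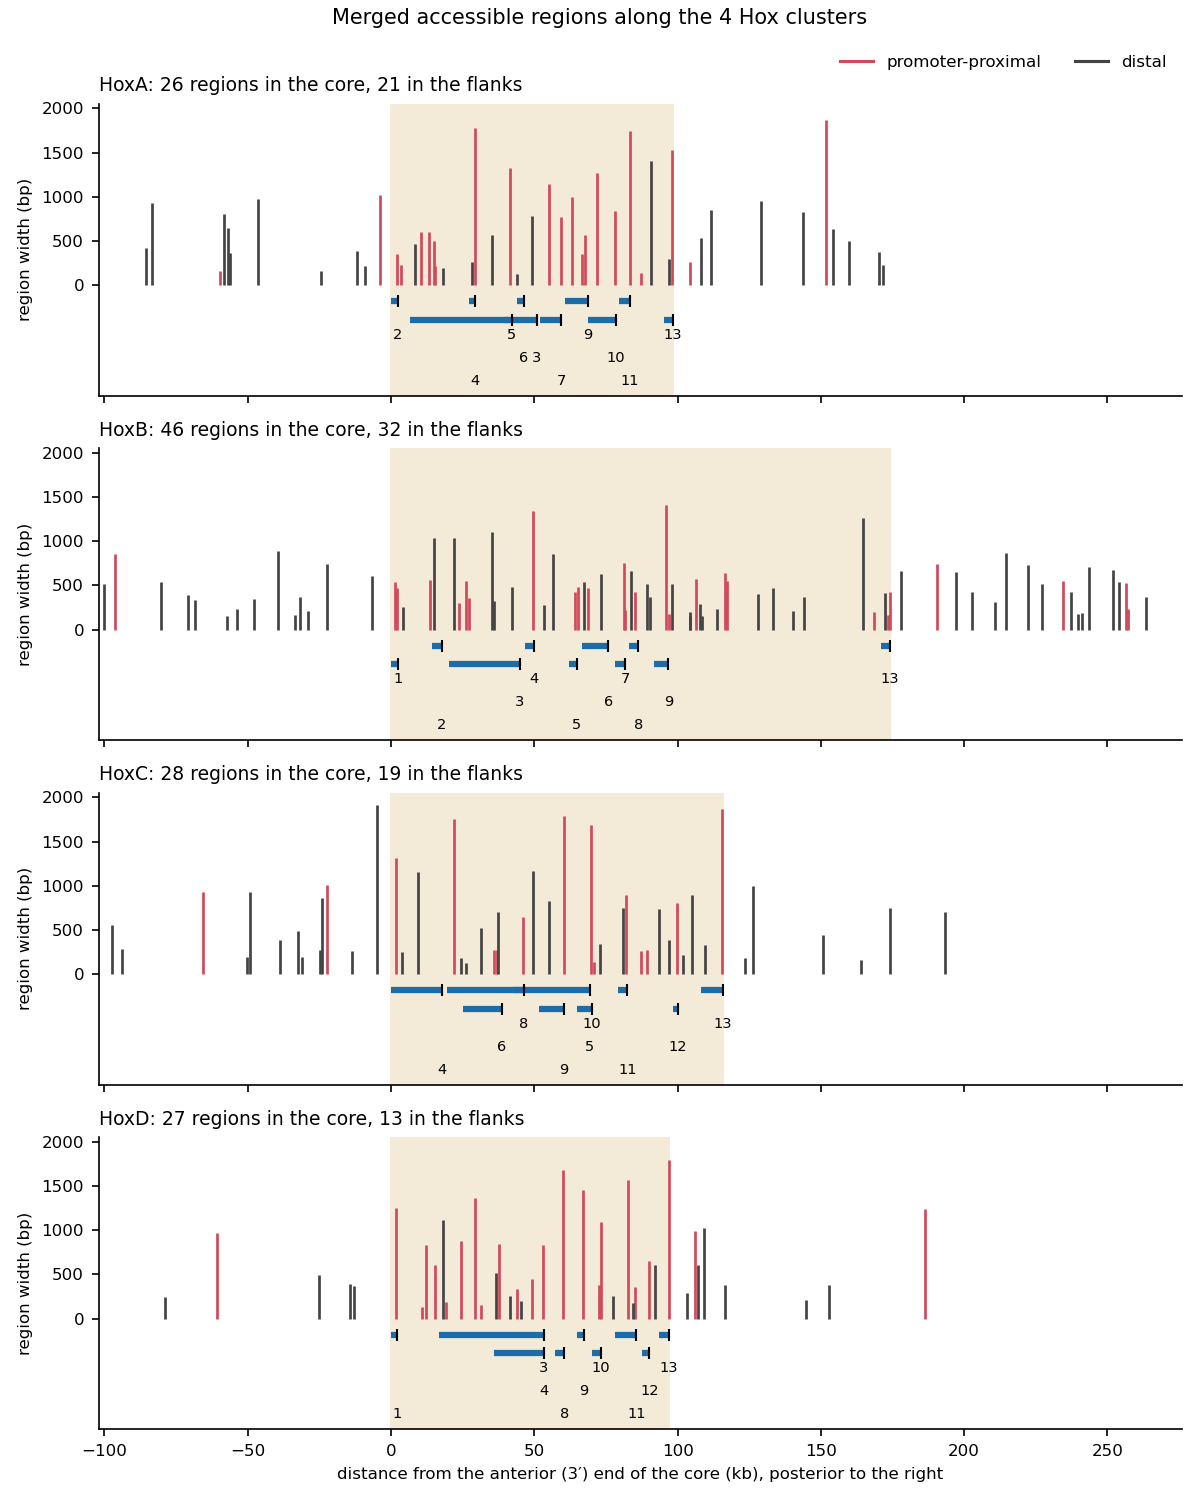
Regions along the clusters, with the distance from the anterior end of the core in kb on the x axis and the width of each region in bp on the y axis, promoter-proximal in red and distal in black. The shaded area is the core, and blue bars are the Hox genes, numbered by paralog group at their 5′ ends. Regions crowd in the shaded cores, and the broad gap in HoxB lies between Hoxb9 and Hoxb13.

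Of the 55 distal regions of the cores, 16 had their center in an exon, 21 in an intron and 18 between genes. Of the 71 distal regions of the flanks, 4, 12 and 55 did. Of all distal merged regions, 6.47% were exonic, against 29.1% of those in the cores. Exons of the Hox genes alone made up 100076 of the 484988 bases of the cores. The part of this exon density in the difference was not tested. Counting all regions of the cores, promoter-proximal ones included, exons of the Hox genes were the best covered class. Of their bases 33.1% lay in a region, compared with 14.5% of intron bases and 10.5% of the bases between the genes. Exonic cover was highest in HoxD (36.6%) and lowest in HoxA (30.2%).

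Each core had a longest stretch without a region. In HoxB it measured 19.7 kb and lay between Hoxb13 and Hoxb9 (chr11:96204220-96223967). In HoxC it was 11.2 kb long (chr15:103015831-103026981), from downstream of the widest Hoxc5 region into the Hoxc4 gene. In HoxA it was 9.65 kb, inside the long annotated form of Hoxa3 (chr6:52180740-52190387), and in HoxD 8.34 kb, inside the antisense transcript gene Haglr between Hoxd3 and Hoxd1 (chr2:74754327-74762662). HoxB is the longest core, and 74 kb separate its Hoxb13 from Hoxb9. This stretch held 16 regions (2.16 per 10 kb, 8.64% of bases), and the 96.8 kb from Hoxb9 to Hoxb1 held 27 (2.79 per 10 kb, 17% of bases), close to the density of the HoxD core.

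Almost every Hox gene had a region at its promoter. For 36 of 38 genes (94.7%, 82.7% to 98.5%) the edge of a region was at most 1 kb away from a TSS, and 74.7% of 21938 protein-coding genes met the same rule. When the region had to cover a TSS, 29 of 38 genes met it (76.3%, 60.8% to 87%), against 68.9% of all protein-coding genes, which lies inside the interval. With only the 5′ end of each gene used as its TSS, 31 of 38 genes kept a region, compared with 70.1% of protein-coding genes. The 7 that did not were Hoxa3, Hoxa6, Hoxb2, Hoxb3, Hoxb6, Hoxb8 and Hoxc4, named after their values were seen. RefSeq promoters, which reach from 250 bases before to 50 after a start, were given for 22 of the 38 genes. Of these, 13 overlapped a region (59.1%, 38.7% to 76.7%), against 69.1% of 16522 protein-coding genes.

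The widest region at each promoter measured 348 to 1865 bp, with a median of 1197.5 bp over the 36 genes and of 1118 bp over all protein-coding genes with a region. It reached 1 kb for 21 of 38 Hox genes (55.3%) and for 47% of all protein-coding genes. The 36 genes drew on 59 distinct regions, and 2 regions were shared by 2 members each: Hoxd3 and Hoxd4 have annotated transcripts that start almost together, and a long form of Hoxc5 starts beside Hoxc10.

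HoxA held the members without a promoter region. For Hoxa3, which shapes the thymus and parathyroid, the nearest region lay 1018 bp from a TSS, just outside the limit, although its long annotated span of 44275 bp held 12 regions with 1 kb added to either side, the most of the cluster. For Hoxa6 the nearest was 2194 bp away, and the only region in its span was 131 bp wide. Hoxa2, the most anterior gene of the core and a regulator of the hindbrain and the hyoid arch, had 2 regions within 1 kb of its TSS, neither of them over it, and the wider measured 348 bp. The other genes of HoxA had broader regions. Hoxa4 had the widest of the cluster at 1781 bp. Hoxa11, which patterns the forearm and the uterus, had 1745 bp, and Hoxa13, needed for digits and the genital tubercle, 1530 bp. Hoxa5, a regulator of lung formation, had 1328 bp, Hoxa10 had 1269 bp and Hoxa7 had 1143 bp, all over a TSS. Hoxa9, a gene of blood stem cells, had 3 regions, the widest 993 bp, but none covered a TSS and the nearest lay 34 bp away.

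HoxB had a promoter region at all 10 genes, with a median width of 545 bp, below the medians of the other clusters (1298.5 bp in HoxA, 1311 bp in HoxC and 1360 bp in HoxD). Only 3 HoxB genes reached 1 kb: Hoxb9 with 1414 bp, Hoxb4, known for expanding blood stem cells, with 1341 bp, and Hoxb2 with 1034 bp. The Hoxb2 region was not at the start of the gene, its edge being 976 bp from the nearest TSS. Hoxb1, which marks a single segment of the hindbrain, had a region of 537 bp beside one of 470 bp over its TSS. Hoxb13, active in the tail and the prostate, had 427 bp, and Hoxb8 had the narrowest of the cluster at 424 bp. Hoxb5, Hoxb6, Hoxb3 and Hoxb7 lay between 475 and 749 bp. Hoxb3, whose span of 24605 bp is the longest of the cluster, held 7 regions, the most in HoxB.

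In HoxC all 9 genes had a promoter region and 7 had one over a TSS. Hoxc13, which is needed for hair and nails, had the widest of all 38 genes at 1865 bp. Hoxc9 followed with 1791 bp, Hoxc5 with 1752 bp and Hoxc10, a gene of hindlimb motor neurons, with 1686 bp. Hoxc4, the most anterior member of the cluster, had 1311 bp, with no region over a TSS and the nearest 163 bp away. The remaining 4 genes were narrower, from 649 bp at Hoxc8 over 702 bp at Hoxc6 and 805 bp at Hoxc12 to 892 bp at Hoxc11. Hoxc5 held 12 regions, the most of its cluster, and its long annotated form spans 49987 bp and other members.

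HoxD was the cluster in which every gene had a region over a TSS, 9 of 9. Hoxd13, a gene of digit formation, had the widest at 1795 bp, followed by Hoxd8 with 1686 bp and Hoxd11, a forearm gene, with 1563 bp. Hoxd9 had 1454 bp, Hoxd10 had 1097 bp and Hoxd12 had 654 bp, the narrowest. At the anterior end, Hoxd1 had 1252 bp and Hoxd3 had 1360 bp, and 849 bp were found at Hoxd4. Hoxd3 held 12 regions in its span, the most of the cluster.

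**Figure D3:**
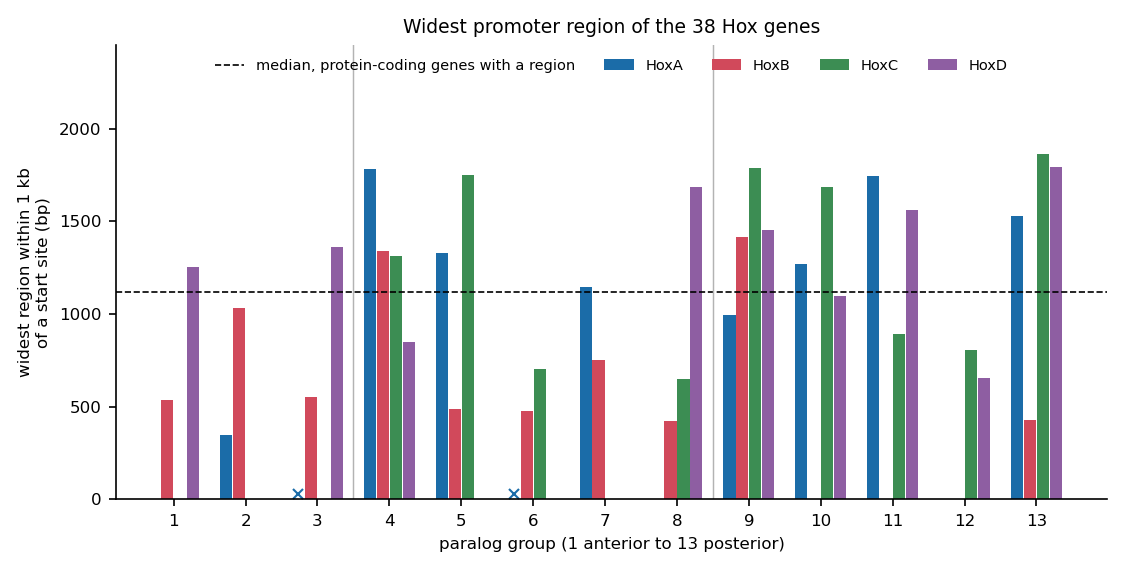
Width in bp of the widest region within 1 kb of a TSS (y axis) for each Hox gene, by paralog group (x axis) and cluster (color), with crosses for genes without such a region and the dashed line at 1118 bp for all protein-coding genes with a region. The HoxB bars are mostly the shortest, and those of Hoxa13, Hoxc13 and Hoxd13 reach 1530 bp or more while Hoxb13 stays at 427 bp.

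By position along the clusters, the posterior genes had the widest regions. Genes of paralog groups 1 to 3, counted as anterior, had a median of 793.5 bp (6 of 7 genes with a region), those of groups 4 to 8 a median of 996 bp (14 of 15) and those of groups 9 to 13 a median of 1434 bp (16 of 16). A region covered a TSS in 4 of 7 anterior, 10 of 15 central and 15 of 16 posterior genes. Within the posterior groups the spread was large, from 427 bp at Hoxb13 to 1865 bp at Hoxc13, so that the groups overlapped. The genes are few and share clusters, and no test was made.

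Over all regions of the cores the median width was 520 bp, against 379 bp for all merged regions, and 28 of 127 (22%) were at least 1 kb wide, compared with 9.83% of all regions. Set beside their own kind and pooled over the cores, promoter-proximal regions were narrower and distal ones wider, but not in every cluster. The proximal regions of the cores had a median of 588 bp, below the 757 bp of all proximal regions. The distal ones had 416 bp, above the 344 bp of all distal regions. By cluster, the proximal median was 688 bp in HoxA and 475 bp in HoxB, but 805 bp in HoxC and 832 bp in HoxD. The distal median was 381 bp in HoxA, 416 bp in HoxB and 522 bp in HoxC, but 261 bp in HoxD. Of the 8 distal regions of at least 1 kb in the cores, 4 lay in HoxB. The widest of them all was 1401 bp, between Hoxa11 and Hoxa13 (chr6:52252463-52253863).

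Regions of the cores were rich in CpG. Their median GC content was 58.4% and their median CpG ratio, the observed number of CpGs over that expected from the C and G content, was 0.635, against 49.2% and 0.243 for all merged regions. A region was counted as CpG-rich when it was at least 200 bp wide, had a GC content of at least 50% and a CpG ratio of at least 0.6. This held for 69 of 127 core regions (54.3%, 45.7% to 62.7%) and for 13 of 85 flank regions (15.3%, 9.16% to 24.4%), and 8.88% of all merged regions met it. CpG-rich regions were also found among the distal core regions, at 20 of 55 (36.4%, 24.9% to 49.6%). Of all distal merged regions, 2.49% were CpG-rich. The centers of these 20 core regions lay 1080 to 6135 bp from the nearest TSS, some of them just past the 1 kb limit. The region of 1034 bp counted above at the Hoxb2 promoter was among them, since that rule used the edge. In HoxA 18 of 26 core regions were CpG-rich, in HoxD 18 of 27, in HoxB 22 of 46 and in HoxC 11 of 28.

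Repeats were scarce in 3 of the cores. Soft-masked bases, which mark repeats and low-complexity sequence, made up 13.4% of the HoxA core, 14.4% of HoxD, 15.9% of HoxC and 24.6% of HoxB, and the median was 31.7% over all autosomal windows and 25.3% over the 77 windows with many genes, close to HoxB. Of all windows, 22.7% had no more masked bases than HoxB. HoxB, the core with the most masked bases, was also the one with the smallest covered share, 13.6% against 17.1% to 19.5% in the other 3. The part of base composition and repeats in the number of regions was not tested.

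**Figure D4:**
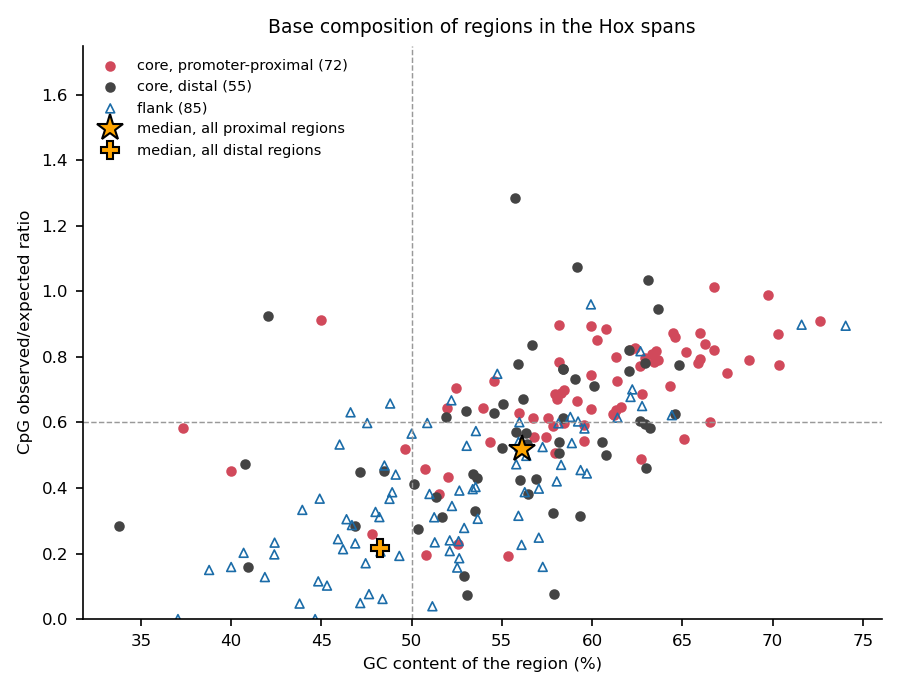
GC content in percent (x axis) and CpG ratio (y axis) of each region in the Hox spans, with the medians of all proximal and all distal merged regions as a star and a cross and dashed lines at 50% and 0.6. Most core regions lie above and to the right of the medians of all regions, and most flank regions do not reach the CpG ratio of 0.6.

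Motifs were searched on both strands, without mismatch unless stated, in the central 200 bp of each region. The octamer ATGCAAAT, read by OCT4, was in 1 of 127 core regions (0.787%, 0.139% to 4.33%), next to Hoxa10, and in 2.01% of all merged regions. The SOX element CATTGTT was in 3 core regions (2.36%, 0.81% to 6.72%), against 4.12% of all. The OCT4::SOX2 composite, CATTGT followed by 1 base and ATGCAAAT with at most 2 mismatches in all, was in 0 of 127 core regions, which allows a share of up to 2.36%, and in 0.571% of all regions. In the central 200 bp these shares could not be told from the background at these numbers. With whole regions searched, the SOX element was in 3.15% of core regions (1.23% to 7.82%). Of all merged regions 8.03% held it, above that interval. Set beside their own kind, the proximal core regions had 4.17% (1.43% to 11.5%) against 6.71% of all proximal regions. The distal ones had 1.82% (0.32% to 9.61%) against 8.31% of all distal regions, so that both backgrounds lay inside the intervals. In the central 400 bp the share was 3.94% (1.69% to 8.89%) against 7.35% of all regions, also inside.

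The AP-2 palindrome GCCNNNGGC was the one motif whose interval in the cores lay above the share of all regions, with 28 of 127 (22%, 15.7% to 30%) against 9.36%. This motif is made of G and C, and it was also in 16.8% of all promoter-proximal regions, which lies inside the interval of 16.4% to 36.1% for the 72 proximal core regions. In longer windows the share of all proximal regions lay below the interval. With the central 400 bp, 43.1% of proximal core regions held it (32.3% to 54.6%), against 28.6% of all proximal regions. With whole regions the shares were 52.8% (41.4% to 63.9%) and 40.9%. In the central 200 bp the 55 distal core regions had 18.2% (10.2% to 30.3%), above the 7.81% of all distal regions, and these are the regions in which CpG-rich sequence was frequent. The part of base composition in these shares was not tested.

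**Figure D5:**
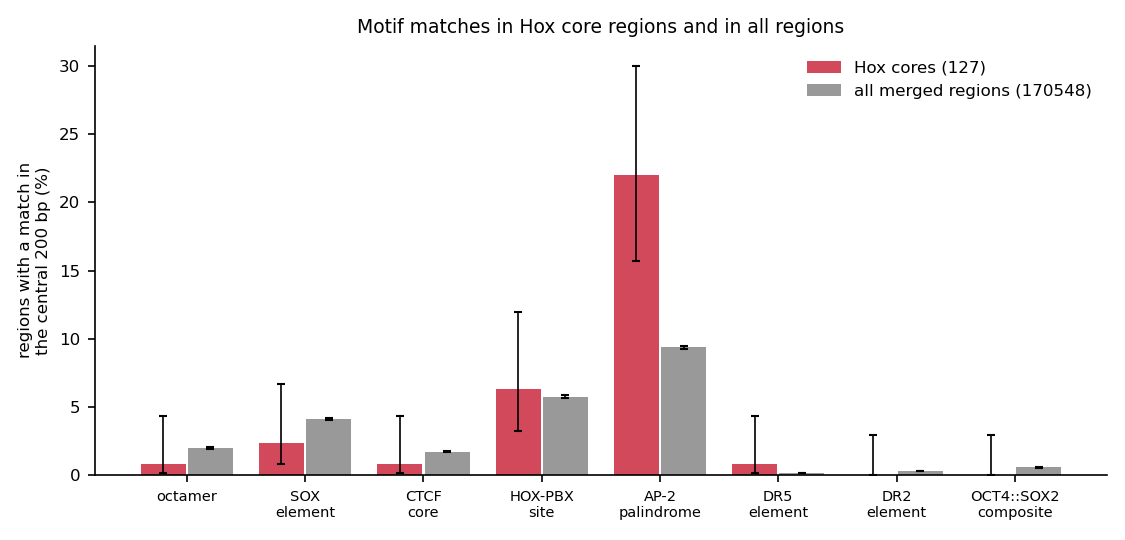
Percent of regions with a match in the central 200 bp (y axis) for each motif (x axis), in the 127 core regions (red) and in all 170548 merged regions (grey), with 95% Wilson intervals. The AP-2 palindrome is the motif whose intervals are apart, at 22% and 9.36%.

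The HOX-PBX site TGATNNAT, bound by HOX proteins together with their partner PBX, was in 8 of 127 core regions (6.3%, 3.23% to 11.9%), close to the 5.75% of all regions. Within whole regions of the cores 20 matches were found, and the 3 nearest to a TSS are shown with the match in capitals. They lie in untranslated exons and are therefore printed as 30 bases each.
Hoxa7 (chr6:52217453-52217482, plus strand, match 16 bp from a TSS): acgaggtagcgTGATATATgataacattac
Hoxb7 (chr11:96286651-96286680, minus strand, match 43 bp from a TSS): acgagattcctTGATATATtacagaattag
Hoxc9 (chr15:102977070-102977099, minus strand, match 53 bp from a TSS): gatcttttgtgTGATGTATgtatcgcaagg
The matches of the paralogs Hoxa7 and Hoxb7 read the same 8 letters. A match is a string of letters and was not shown to be bound.

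Retinoic acid receptors bind direct repeats of AGGTCA or AGTTCA or GGGTCA or GGTTCA with 5 bases (DR5) or 2 bases (DR2) between them. A DR5 element was in the center of 1 of 127 core regions (0.787%, 0.139% to 4.33%) and of 0.14% of all regions, and no core region had a DR2 element in its center, which allows up to 2.36%, against 0.293% of all regions. Counting whole regions, the cores held 1 DR5 and 1 DR2 element, and both were in HoxA.
DR5 element (chr6:52175466-52175615, minus strand, in an intron of the long form of Hoxa3, overlapped by Hoxaas3): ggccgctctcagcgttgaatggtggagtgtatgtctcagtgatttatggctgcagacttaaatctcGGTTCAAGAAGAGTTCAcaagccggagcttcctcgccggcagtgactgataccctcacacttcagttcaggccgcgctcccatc
DR2 element (chr6:52233748-52233897, plus strand, in an intron of Hoxa10): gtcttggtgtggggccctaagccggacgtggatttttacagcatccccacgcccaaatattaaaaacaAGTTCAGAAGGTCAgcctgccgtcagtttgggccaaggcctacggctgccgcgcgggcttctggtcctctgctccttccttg
The region with the DR5 element was 606 bp wide (chr6:52175225-52175830), lay at the start of the antisense transcript Hoxaas3, and also held a HOX-PBX site at chr6:52175569-52175576. The DR2 element lay 499 bp from a TSS of Hoxa10, in a region of 1269 bp.

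CTCF, the factor that divides Hox clusters into domains, reads a longer motif whose core was taken as CCACNAGGG. It was in the center of 1 of 127 core regions (0.787%, 0.139% to 4.33%), in an intron of Hoxb3, against 1.72% of all regions. Counting whole regions there were 4 matches in the cores, and those at Hoxd9 and Hoxc6 are shown with the match in capitals.
Hoxd9 (chr2:74697759-74697788, plus strand, untranslated exon): ggccgccgccgCCACCAGGGcgggctgagc
Hoxc6 (chr15:102999500-102999649, minus strand, intron): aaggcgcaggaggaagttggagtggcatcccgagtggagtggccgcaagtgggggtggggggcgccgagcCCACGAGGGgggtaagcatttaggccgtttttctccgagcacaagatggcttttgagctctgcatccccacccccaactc
The search used a short exact string, so that a CTCF site with other letters was not counted.

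The clusters also carry microRNA genes, some of which are known to repress Hox transcripts. Mature sequences from RefSeq (GRCm38.p6) are shown for the 5p arms, with the seed, bases 2 to 8, in capitals, and fall into 3 seeds.
miR-10a-5p (HoxB): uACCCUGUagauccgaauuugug
miR-10b-5p (HoxD): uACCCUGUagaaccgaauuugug
miR-196a-5p (HoxB and HoxC): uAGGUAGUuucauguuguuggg
miR-196b-5p (HoxA): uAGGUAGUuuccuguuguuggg
miR-615-5p (HoxC): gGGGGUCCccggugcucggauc
Mir10a, upstream of Hoxb4, and Mir10b, at Hoxd4, share a seed and had their nearest region 937 and 950 bp from the annotated start. Mir196b, near Hoxa9, and Mir615, inside Hoxc5, started within a region. The members of the miR-196a pair, Mir196a-1 and Mir196a-2, had no region within 1 kb, the nearest being 1015 and 2238 bp away.

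Of the long non-coding genes fixed for naming, 3 of 4 had a region over a start site. Hotair, which is transcribed from HoxC, had 1 region of 274 bp. Haglr, in HoxD, had 4 regions within 1 kb of its start sites, the widest of 1252 bp being the one at the Hoxd1 promoter, and Halr1, in the anterior flank of HoxA, had 2 regions of up to 808 bp. Hottip, in the posterior flank of HoxA next to Hoxa13, had its nearest region 1384 bp away. Over all annotated genes in the cores that do not code for protein, 29 of 38 had a region within 1 kb of a start, and in the flanks 12 of 30 did. The same rule was met by 27% of the 33475 such genes on all chromosomes used. In the cores these genes often overlap a Hox promoter, and whose start a region belongs to cannot be told apart.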

How the data were processed

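The deposited list, made by the authors, holds 3 columns per region: chromosome, start and end, in bp on mm10. Per the study's methods and the submitters' processing notes, reads were aligned with STAR 2.6.1c, deduplicated with Picard, restricted to the assembled chromosomes, and given to MACS2 2.1.1.20160309 in paired-end mode, and the peaks of all experiments were merged with BEDTools. Whether peaks were called per replicate is not given in the sources used here. The list has no read numbers and 0 columns of a single sample, so no count model, depth or comparison of groups was possible. Merging joins overlapping peaks of different libraries and can widen regions. The paper also describes the removal of very large peaks and of those that overlap input or blacklisted peaks. This list still holds regions of up to 58315 bp, so the size filter had not been applied to it.

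Genes, transcripts and exons came from GENCODE M21 on GRCm38, sequence from the same build. The 38 members, the gene lists and the motifs were chosen with earlier results of these data known. Coordinates are counted from 1. A region was promoter-proximal when its center lay within 1 kb of a TSS of any transcript. A gene had a promoter region when a region edge lay within 1 kb of one of its TSSs. A region was in a core when it overlapped it. Windows of 100 kb on autosomes needed 50% assembled bases and counted regions by their center. Intervals are 95% Wilson intervals for counting error only, since regions and genes are not replicates, and no test was made. Members named with values are the first and last of each cluster, those without a promoter region, those with the widest, those with the most regions, and the rest for completeness. The steps were tested on simulated regions and planted motifs with Python 3.11.15, NumPy 2.4.6, SciPy 1.17.1 and pandas 2.3.3. Alternatives covered width, joining, TSS choice, limits and window size. Some sequences are not reported here.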

Additional observations from a re-analysis of the deposited data

How the results depend on the processing

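No paired analysis was possible because samples have no values of their own in the deposited positions, and for the same reason no replicate could be left out. Of 38 planned recalculations, 30 stayed within 1.5 times the value given (counts and densities) or inside its 95% interval (shares and medians), and 8 moved. The share of promoter-proximal core regions moved from 56.7% to 42.5% with a limit of 500 bp, to 77.2% with 2 kb, to 42.5% with TSSs of protein-coding genes only and to 41.7% with 1 TSS per gene, and stayed above the share of all merged regions in each. The covered share of the cores counted as moved, though the change was small, from 16.7% to 16.1% with regions of at least 200 bp only. Bases of a region are not independent, so an interval that counts bases is too narrow for this share. With the whole region searched, a HOX-PBX site was in 15.7% of core regions (12.9% of all merged regions), and the AP-2 palindrome in 44.9% (18.8%), or in 37.8% (16%) with the central 400 bp. Longer windows hold more letters. Of the alternatives chosen after seeing the data, windows with at least 9 protein-coding gene starts had a median of 1.7 regions per 10 kb in place of 0.5, and the cores without the stretch from Hoxb13 to Hoxb9 had 2.7 per 10 kb. The list limits all of this: it shows where a region was called in at least one experiment, not in which cells, how strongly, or with what depth.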

Other observations

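Gene groups that work with the Hox genes also had regions at their promoters. All 9 genes of the HOX partners, the Pbx, Meis and Pknox families, had a region over a TSS, with a median of 3 regions within 1 kb of their start sites, against 1 for the Hox genes and 1 for all protein-coding genes. That count takes in all annotated start sites of a gene, and their numbers were not compared between the lists. The widest lay at Pbx3, 2489 bp. All 12 genes of the retinoic acid pathway had a region within 1 kb and 10 had one over a TSS, against 74.7% and 68.9% of all protein-coding genes. The receptor gene Rarg reached 1987 bp and Crabp1, a binding protein of retinoic acid, 1977 bp, while the nearest region of Cyp26c1, which breaks retinoic acid down, lay 794 bp from a TSS.

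Homeobox genes outside the clusters had a region within 1 kb in 14 of 15 relatives of the Hox genes, such as the Cdx, Evx and En genes, and in all 12 Dlx and Irx genes, beside 74.7% of all protein-coding genes. The exception was Meox1, whose nearest region was 2272 bp away. The widest regions of the relatives had a median of 1506.5 bp, above the 1197.5 bp of the Hox genes, with 2153 bp at Mnx1 and 2031 bp at Cdx1. Those of the Dlx and Irx genes had a median of 1078 bp. These differences were not tested.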
